A study of Mus musculus with 6 samples.

Results

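The genes described here are 47 genes of the DNA replication machinery, taken as a list of the proteins that license, unwind, copy and repackage DNA and not by their measured values. All 47 were found among the 22281 features of the deposited table of unique molecular identifier (UMI) counts, which covers 21706 cells of adult mouse heart. The 3 YAP5SA libraries came from hearts with the genotype Yap5SA+/tg; Myh6-MCM, in which cardiomyocytes express a form of YAP that the Hippo kinases cannot phosphorylate. The 3 Control libraries came from Myh6-MCM hearts without that transgene. Both genotypes carry the MerCreMer recombinase (MCM) driven by the cardiomyocyte promoter of Myh6 and both were given tamoxifen, so the recombinase and the drug are common to all libraries. In each genotype 2 libraries held dissociated cardiac tissue, with settled cardiomyocytes and the other cells put together again, and 1 held cardiomyocytes enriched by settling. The libraries were made by Drop-seq, in which single cells are lysed in droplets with barcoded beads. The tissue libraries are numbered as in the deposited table of cells, and library values are listed as tissue-1, tissue-2 and enriched for YAP5SA, and as tissue-2, tissue-3 and enriched for Control. The sources used here do not say which libraries come from separate animals, so p-values measure the spread between libraries, which may be technical.

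Replication starts when the origin recognition complex with Cdc6 and Cdt1 loads rings of MCM proteins onto DNA in G1, and geminin (Gmnn) then binds Cdt1 and blocks a new round of loading. In S phase Cdc45 and the GINS proteins turn the MCM ring into the active helicase, primase and DNA polymerases copy both strands, and the clamp PCNA, the single-strand binding protein RPA, the flap nuclease Fen1 and DNA ligase 1 complete the lagging strand. Ribonucleotide reductase, thymidylate synthase and thymidine kinase supply deoxynucleotides, while Chaf1a and Chaf1b, Uhrf1, Dnmt1 and Hells restore nucleosomes and DNA methylation behind the fork. Most adult mammalian cardiomyocytes have left the cell cycle and make little of this machinery, and E2F transcription factors drive many of its genes in cells that enter S phase.

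The authors' clusters were used as deposited: CM1, CM2, CM3 and YAP5SAcm were pooled as cardiomyocytes, and Mac4 and CF4, macrophages and fibroblasts rich in proliferation genes, were set beside them. Total UMIs per library ran from 6665280 to 13483791 in YAP5SA and from 3382656 to 10568669 in Control. Cardiomyocytes numbered 343, 282 and 1004 in YAP5SA and 576, 1173 and 1068 in Control, with a median of 1876, 2679.5 and 2698 UMIs per cell in YAP5SA and 4595, 4565 and 2204 in Control. The largest cardiomyocyte cluster was YAP5SAcm in every YAP5SA library and CM1 in every Control library: YAP5SAcm held 61.8%, 72.0% and 47.9% of them in YAP5SA and 8.68%, 2.81% and 1.5% in Control, where CM1 held 312 of 576, 580 of 1173 and 537 of 1068. The 10 cardiomyocyte markers, such as Myh6 and Tnnt2, were all detected in the cardiomyocytes of every library, at a summed 34460 to 48770 CPM (UMIs scaled to a common library total) in YAP5SA and 75740 to 87810 CPM in Control. Of 21696 cell barcodes, 10 occurred in more than 1 library. The median mitochondrial share of UMIs per cell was 2.95%, 2.40% and 6.6% in YAP5SA libraries and 2.31%, 16.0% and 13.4% in Control libraries. Yap1 stood at 52.9, 46.0 and 24.6 CPM in YAP5SA cardiomyocytes and at 17.9, 14.8 and 15.3 CPM in Control cardiomyocytes, but whether transcripts of the transgene count as Yap1 is not given in the sources used here, so these values do not check the genotype.

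To show regulatory sequence beside the values, the 250 bases before the start of 5 members are printed 5′ to 3′ on the gene's strand, from RefSeq on GRCm38.p6. These 5 were chosen after their values were seen and are not the 5 with the smallest p: Mcm5, Mcm6, Hells and Rrm2 were called higher in YAP5SA cardiomyocytes and Rpa3 was called lower. Capitals mark matches, on either strand, to the E2F-type letters TTTCCCGC, TTTCGCGC, TTTGCCGC or TTTGGCGC. Where matches on opposite strands overlap, as in Mcm5 and in the first stretch of Mcm6, they form 1 run of capitals.
Mcm5, an MCM ring subunit, chr8:75109259-75109508, plus strand: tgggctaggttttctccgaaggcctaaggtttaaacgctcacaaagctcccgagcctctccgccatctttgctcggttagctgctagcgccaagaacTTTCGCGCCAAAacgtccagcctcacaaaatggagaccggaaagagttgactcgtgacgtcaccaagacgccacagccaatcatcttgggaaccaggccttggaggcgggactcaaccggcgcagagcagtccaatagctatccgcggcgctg
Mcm6, an MCM ring subunit, chr1:128359706-128359955, minus strand: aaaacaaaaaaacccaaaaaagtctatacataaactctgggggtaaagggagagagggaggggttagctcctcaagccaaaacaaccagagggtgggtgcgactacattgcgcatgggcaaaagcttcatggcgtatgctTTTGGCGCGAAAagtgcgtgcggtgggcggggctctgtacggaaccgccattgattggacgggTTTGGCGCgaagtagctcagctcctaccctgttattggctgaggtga
Hells, a chromatin remodelling helicase, chr19:38930740-38930989, plus strand: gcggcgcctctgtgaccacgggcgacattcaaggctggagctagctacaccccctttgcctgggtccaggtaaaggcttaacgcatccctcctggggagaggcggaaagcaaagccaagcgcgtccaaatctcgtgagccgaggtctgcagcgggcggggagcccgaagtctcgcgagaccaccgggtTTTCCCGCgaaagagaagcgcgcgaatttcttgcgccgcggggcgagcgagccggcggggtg
Rrm2, the small subunit of ribonucleotide reductase, chr12:24708004-24708253, plus strand: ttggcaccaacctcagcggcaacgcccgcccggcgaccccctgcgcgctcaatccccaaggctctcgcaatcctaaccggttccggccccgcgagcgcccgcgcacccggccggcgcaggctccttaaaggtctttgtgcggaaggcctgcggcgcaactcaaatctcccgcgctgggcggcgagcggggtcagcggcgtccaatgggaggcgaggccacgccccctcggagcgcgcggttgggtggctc
Rpa3, the smallest subunit of RPA, chr6:8259142-8259391, minus strand: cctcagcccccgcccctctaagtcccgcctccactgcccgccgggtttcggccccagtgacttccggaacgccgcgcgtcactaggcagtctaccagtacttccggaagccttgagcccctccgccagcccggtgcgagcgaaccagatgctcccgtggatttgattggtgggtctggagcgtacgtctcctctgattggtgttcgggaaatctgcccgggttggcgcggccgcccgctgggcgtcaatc
The Mcm5 stretch holds 2 matches and the Mcm6 stretch 3, the Hells stretch holds 1, and the Rrm2 and Rpa3 stretches hold 0. Of the 47 members, 39 were matched to a RefSeq start, with 47 promoters of 300 bases (250 before to 50 after the start) in all. Such letters stood in 38.3% of the members' promoters and in 2.27% of all 32851 promoters in the table. They stood in 10 of 19 genes called higher in YAP5SA cardiomyocytes and in 5 of 15 genes tested there and not called. A gene with more starts has more chances of a match. By promoter they stood in 10 of 26 (38.5%) and in 5 of 16 (31.25%). CCAAT, the letters of a common promoter box, on either strand, stood in 57.4% of the members' promoters and in 37.4% of all promoters. A match is a description of the letters and no measurement of E2F binding.

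DNA replication genes were called higher in YAP5SA cardiomyocytes than in Control cardiomyocytes in each of the 7 role groups, from licensing to chromatin assembly, and geminin and Rpa3 were called lower. In the licensing, helicase, polymerase and fork checkpoint groups, every member called higher passed the filter on low counts through the YAP5SA libraries alone. UMI counts were summed per library over the 4 cardiomyocyte clusters and all genes were fitted together with edgeR's quasi-likelihood test. Of 41 members that passed the filter on low counts, 20 rose and 2 fell at a Benjamini-Hochberg adjusted p of 0.05, while 13.9% of all 10924 genes tested rose and 12.6% fell. The median log2 fold change was 1.74 over these 41 members and 0.04 over all genes tested, and 36 of the 41 were positive. A member that passes such a filter only through the libraries where it is high has to differ, so these counts and medians, and those of the role groups, are a description of the list. No Control library reached the filter for 19 of the 41 members, among them 16 of the 20 called higher (Cdt1, Clspn, Mcm6, Mcm5, Rrm2, Hells, Chaf1b and Uhrf1 among these), and these 19 passed through the YAP5SA libraries alone. Of the other 22 members tested, 4 were called higher (Fen1, Lig1, Rrm1 and Dnmt1) and 2 lower (Gmnn and Rpa3). Beside these stand the 13.9% and 12.6% of all genes tested, shares that were not split by how a gene passed the filter. With no filter on low counts, all 22 calls of the 41 members were made again. That refit used the same counts, so it is no further support for members nearly absent from Control. The 3 YAP5SA libraries all lay above the 3 Control libraries for 28 members, against 25.9% of all genes, and all lay below them for 2, against 22.2%. A sum over a class does not tell more cells with a transcript from more transcript per cell. With UMI totals alone in place of TMM scaling, the median of all genes moved from 0.04 to 0.87, 33 members were called higher and 0 lower, against 37.4% and 3.92% of all genes. Gmnn then stood at -1.04 and Rpa3 at -0.54 (adjusted p = 0.0687 and 0.228).

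The number of calls depended on which library was left out and on YAP5SAcm cells. Leaving out the YAP5SA tissue-2 library left 3 members called higher (Mcm5, Mcm6 and Rrm2), against 1.7% of all genes, and leaving out YAP5SA tissue-1 left 8, against 4.01%. The range without any other single library was 16 to 22, and without Control tissue-2 all 22 calls were kept. No called member changed sign in any alternative that could be fitted. Without YAP5SAcm cells, 20 members passed the filter and 0 were called by edgeR's quasi-likelihood test in either direction, with 7 at an unadjusted p under 0.05. In that fit 0.18% of all genes were called higher and 0.0% lower. The median log2 fold change of the members was -0.11 there, with 9 of 20 positive, beside 0.04 over all genes. Only 7 of the 22 members called with all cardiomyocytes were among these 20, so this median and that of all cardiomyocytes cover different members. The members called with all cardiomyocytes that could still be fitted were Rrm2 (2.93, adjusted p = 0.101), Dnmt1 (1.66), Lig1 (1.4), Rrm1 (1.26), Fen1 (0.59), Rpa3 (-1.72) and Gmnn (-2.29, adjusted p = 0.139).

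**Figure D1:**
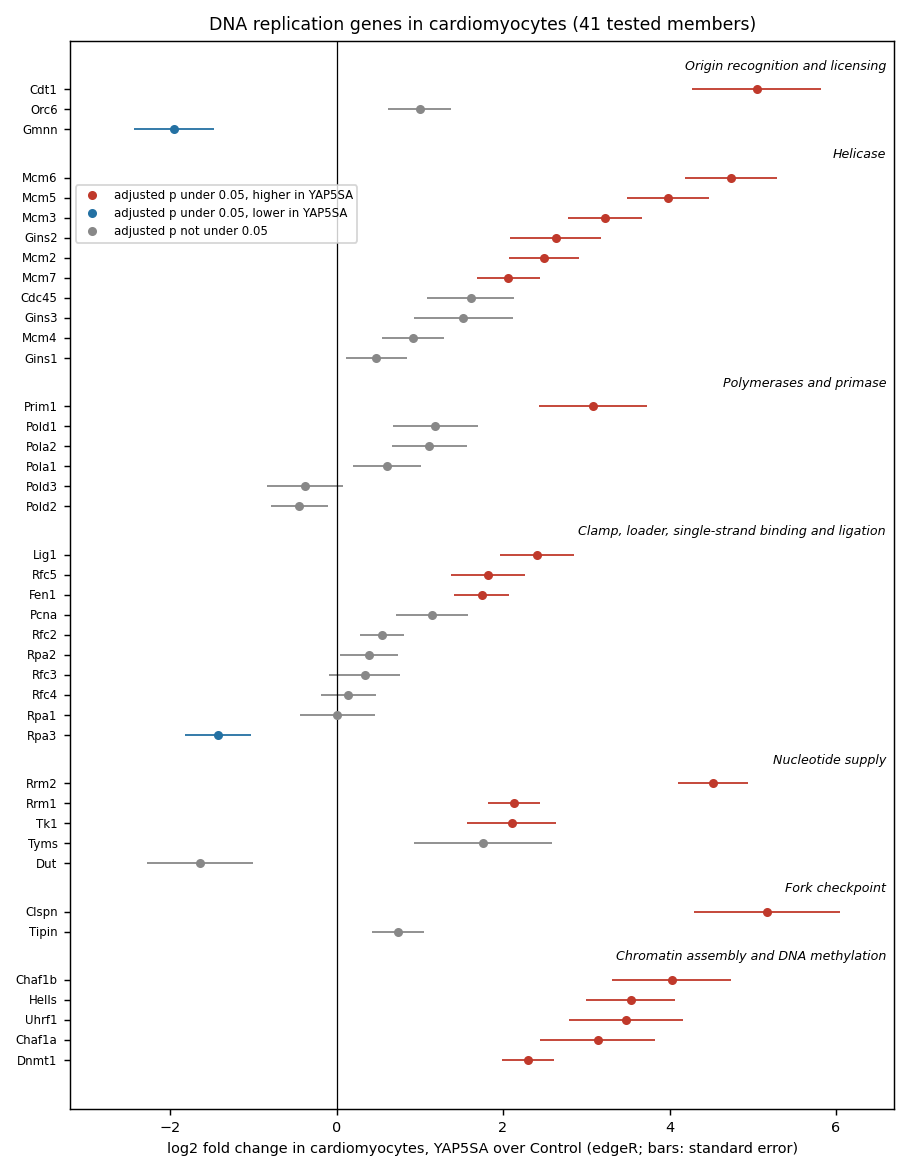
Log2 fold change of the 41 tested DNA replication genes in cardiomyocytes, YAP5SA over Control (horizontal axis), with bars of 1 standard error, in 7 role groups down the page; red and blue points had an adjusted p under 0.05 (higher and lower in YAP5SA), grey points did not. Of the 41 members, 36 lie above 0, and Gmnn and Rpa3 are the 2 called lower.

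Among the licensing genes Cdt1 was called higher and its inhibitor Gmnn lower. Cdt1, which brings MCM rings to origins, had 12.7, 11.7 and 4.57 TMM-scaled CPM in YAP5SA and 0, 0.622 and 0 in Control. Transcripts of Cdt1 were thus nearly absent from Control cardiomyocytes, with 64 UMIs in all of YAP5SA and 3 in all of Control. It passed the filter through the YAP5SA libraries alone (log2 fold change 5.04, SE 0.78, adjusted p = 0.00799). The call was lost without YAP5SA tissue-2 (adjusted p = 0.0690). The ratio of unscaled pooled CPM was 43.0 (exact 95% interval for counting error 14.1 to 214), and a fitted fold change against so few counts depends on the prior count. Gmnn had 22.7, 31.2 and 39.6 CPM in YAP5SA and 47.7, 170 and 141 in Control. Every YAP5SA library lay below every Control library (log2 fold change -1.95, SE 0.48, adjusted p = 0.0264), but the call was lost without any 1 library other than Control tissue-2, at adjusted p of 0.0559 to 0.125. In YAP5SAcm cells alone, with 50, 33 and 16 Control cells, Gmnn stood at -0.41 and was not called. Orc6, a subunit of the origin recognition complex, was higher in every YAP5SA library and was not called (log2 fold change 1.0, adjusted p = 0.0885). Orc1 and Cdc6, which open the loading reaction, did not pass the filter. Orc1 had 13 UMIs in YAP5SA and 0 in Control cardiomyocytes, or at least 8.73-fold higher if Control is set to 3 UMIs in all, and Cdc6 had 18 and 1 (ratio of unscaled CPM 36.2, exact 95% interval 5.72 to 1510).

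Of the 10 helicase genes tested, 6 rose and 0 fell, with a median log2 fold change of 2.28, against 13.9% and 12.6% of all genes tested. All 6 passed the filter on low counts through the YAP5SA libraries alone, so this count is a description. Mcm4 and Gins1, which had Control libraries over the filter, were not called. Mcm6 had 11.4, 16.1 and 7.24 CPM in YAP5SA and 0.329, 0.415 and 0.492 in Control. The groups stood far apart for this ring subunit (log2 fold change 4.74, SE 0.56, adjusted p = 0.00378). Mcm5 had 16.7, 21.7 and 12 CPM in YAP5SA and 1.64, 0.622 and 0.985 in Control (log2 fold change 3.98, SE 0.49, adjusted p = 0.00460). Both calls held without any 1 library. Mcm3 (3.22), Gins2 (2.63), Mcm2 (2.49) and Mcm7 (2.06) were also called higher on the log2 scale. The ring subunit Mcm4 was not called (0.92, adjusted p = 0.110), nor were Cdc45 (1.61), Gins3 (1.52) and Gins1 (0.48), which complete the active helicase. Mcm10, which helps start the fork, did not pass the filter, with 16 UMIs in YAP5SA and 0 in Control cardiomyocytes, or at least 10.7-fold higher with Control set to 3 UMIs in all. Exons of Mcm7 overlap those of Cops6 and Ap4m1 and host Mir25 and Mir93, exons of Gins2 overlap Gse1 and those of Cdc45 overlap Ufd1, so their counts are uncertain.

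Of 6 polymerase and primase genes tested, 1 rose and 0 fell, with a median log2 fold change of 0.86. The 1 that rose passed the filter on low counts through the YAP5SA libraries alone. Prim1, the catalytic primase subunit, had 10.7, 11.1 and 7.24 CPM in YAP5SA and 2.3, 1.24 and 0 in Control. It was the 1 member of this group that rose (log2 fold change 3.08, SE 0.65, adjusted p = 0.0166), and its call was lost without YAP5SA tissue-1, YAP5SA tissue-2 or Control tissue-3, at adjusted p of 0.0555 to 0.102. Pola2, a subunit of DNA polymerase alpha, had 8.68, 7.24 and 3.62 CPM in YAP5SA and 3.29, 2.90 and 2.46 in Control. Its libraries did not overlap, but it was not called (log2 fold change 1.12, SE 0.45, adjusted p = 0.104). The others tested were Pold1 (1.19), Pola1 (0.61), Pold3 (-0.38) and Pold2 (-0.45), and 0 of them were called. Also below the filter, Prim2 had 10 UMIs in YAP5SA and 7 in Control cardiomyocytes, Pole 25 and 5, and Pole2 9 and 2.

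Among the 10 genes of the clamp, its loader, single-strand binding and ligation, 3 rose and 1 fell, with a median log2 fold change of 0.47. Of those that rose, Rfc5 had no Control library over the filter on low counts. Lig1, the ligase that joins Okazaki fragments, had 28.0, 26.2 and 14.7 CPM in YAP5SA and 5.92, 2.49 and 4.43 in Control (log2 fold change 2.41, SE 0.44, adjusted p = 0.0116). Fen1, the nuclease that trims their flaps, had 22.0, 25 and 12 CPM in YAP5SA and 5.92, 6.22 and 4.92 in Control (log2 fold change 1.74, SE 0.33, adjusted p = 0.0124). Both were above every Control library in every YAP5SA library, and both calls were lost without YAP5SA tissue-1 or YAP5SA tissue-2, at adjusted p of 0.0597 to 0.0901. The loader subunit Rfc5 also rose (1.82), while Rfc2 (0.55), Rfc3 (0.34) and Rfc4 (0.14) were not called. The clamp Pcna overlapped between groups, with 22.7 to 47.9 CPM in YAP5SA and 7.39 to 25.1 in Control (log2 fold change 1.14, adjusted p = 0.0900). RPA binds single-stranded DNA as a complex of Rpa1, Rpa2 and Rpa3. Rpa3 had 10.7, 12.8 and 18.5 CPM in YAP5SA and 23.4, 52.0 and 35.9 in Control, with no overlap (log2 fold change -1.42, SE 0.39, adjusted p = 0.0355), whereas Rpa2 (0.38) and Rpa1 (0.01) were not called. The call of Rpa3 was lost without any 1 library other than Control tissue-2, at adjusted p of 0.0669 to 0.162. Exons of Lig1 overlap Zswim9, those of Fen1 overlap Tmem258 and those of Rfc5 overlap Wsb2, and Pcna has a pseudogene in the table, so their counts are uncertain.

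Of 5 genes of nucleotide supply, 3 rose and 0 fell, with a median log2 fold change of 2.10. Of those that rose, Rrm2 and Tk1 had no Control library over the filter on low counts. Rrm2, the S phase subunit of ribonucleotide reductase, had 66.8, 77.9 and 42.1 CPM in YAP5SA and 1.64, 2.90 and 3.45 in Control. No other member had a smaller p (log2 fold change 4.52, SE 0.42, adjusted p = 0.00219), and the call held without any 1 library. Rrm1, the large subunit, had 49.4, 41.7 and 43.1 CPM in YAP5SA and 7.24, 10.2 and 13.8 in Control (log2 fold change 2.13, SE 0.31, adjusted p = 0.00746). Its call was lost without YAP5SA tissue-2 (adjusted p = 0.0575). Thymidine kinase Tk1 rose (2.10) and thymidylate synthase Tyms was not called (1.76, adjusted p = 0.156). Dut, which breaks down dUTP, had 31.4, 25 and 30.7 CPM in YAP5SA and 21.1, 134 and 119 in Control. The Control tissue-2 library lay below all YAP5SA libraries and the other Control libraries far above them, and Dut was not called (log2 fold change -1.64, SE 0.64, adjusted p = 0.102). DESeq2 on the same counts called Dut lower (log2 fold change -1.66).

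Both fork checkpoint genes were higher in every YAP5SA library, and 1 of them was called. Clspn (claspin), which relays stalled forks to the checkpoint kinase Chek1, had 12.7, 11.7 and 12.8 CPM in YAP5SA and 0.987, 0 and 0 in Control. It also passed the filter through the YAP5SA libraries alone, with 107 UMIs in YAP5SA against 3 in Control (log2 fold change 5.17, SE 0.88, adjusted p = 0.00997), a ratio of unscaled CPM of 71.8 (exact 95% interval 23.9 to 354). The call was lost without YAP5SA tissue-1 or YAP5SA tissue-2, at adjusted p of 0.0550 and 0.0771. Tipin, which stabilises the fork together with Timeless, had 16.7, 18.4 and 15.1 CPM in YAP5SA and 10.5, 8.29 and 11.3 in Control (log2 fold change 0.74, SE 0.31, adjusted p = 0.120).

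All 5 genes of chromatin assembly and DNA methylation were called higher, of which Dnmt1 alone had Control libraries over the filter on low counts. Dnmt1, which copies methylation to the new strand, had 49.4, 52.9 and 32.2 CPM in YAP5SA and 13.8, 8.71 and 5.42 in Control (log2 fold change 2.3, SE 0.31, adjusted p = 0.00543). Hells had 11.4, 9.46 and 4.19 CPM in YAP5SA and 0.987, 0.622 and 0.492 in Control (log2 fold change 3.53, SE 0.53, adjusted p = 0.00776). Both genes were higher in every YAP5SA library, and in both the enriched library was the lowest of the 3. The call of Dnmt1 was lost without YAP5SA tissue-2 (adjusted p = 0.0575), and that of Hells without YAP5SA tissue-1 or tissue-2 (adjusted p = 0.0583 and 0.0690). The histone chaperone subunits Chaf1b (4.03) and Chaf1a (3.14) and Uhrf1 (3.48), which guides Dnmt1 to hemimethylated DNA, rose as well.

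**Figure D2:**
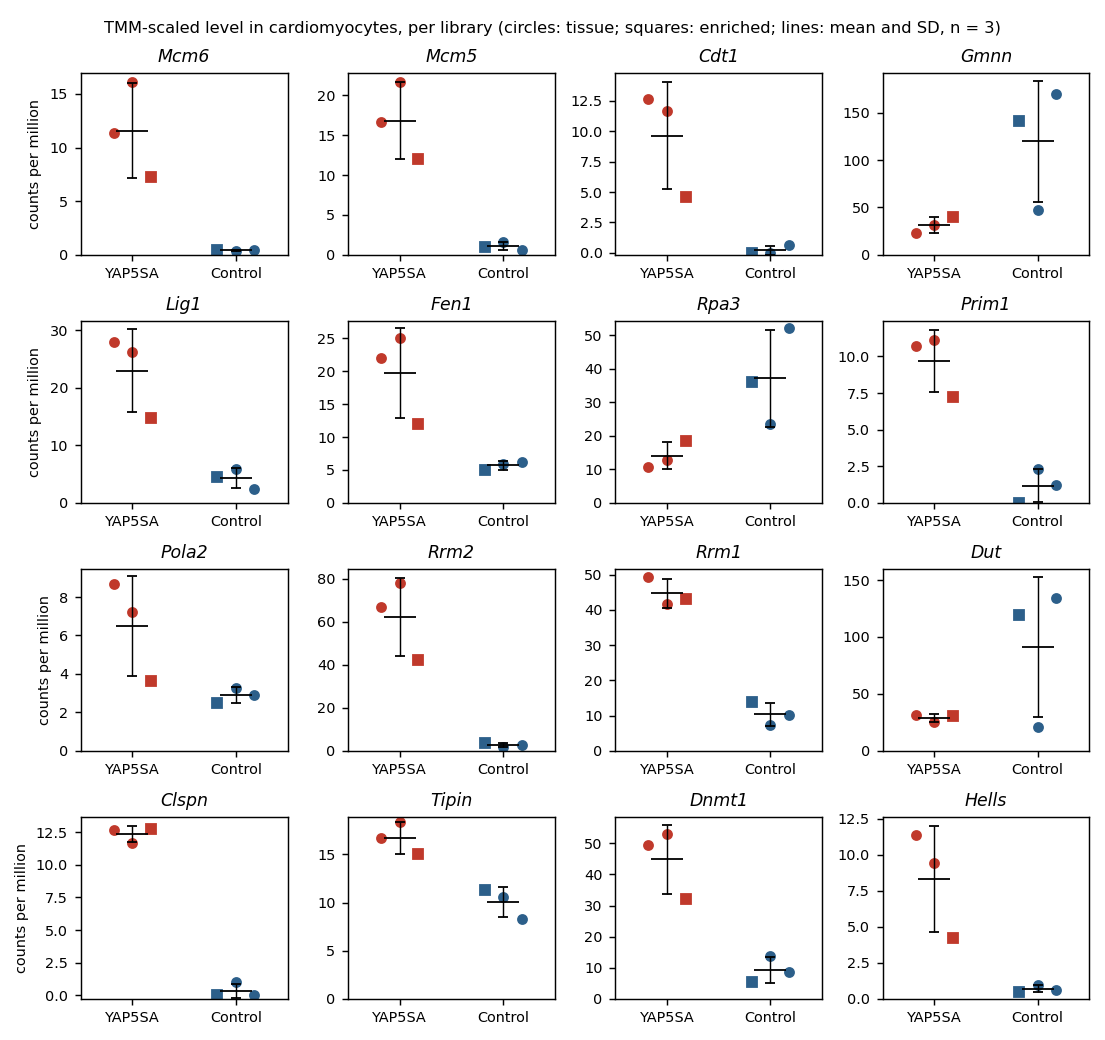
TMM-scaled CPM per library (linear axes, 1 per panel) of 16 members in cardiomyocytes, YAP5SA (red) left of Control (blue), circles for tissue and squares for enriched libraries, lines for mean and SD (n = 3). The Gmnn, Rpa3 and Dut panels are those in which Control libraries reach above YAP5SA libraries.

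The summed level of the 47 members was made up differently in the genotypes. In unscaled CPM it was 1021, 1077 and 695 in YAP5SA cardiomyocytes and 271, 396 and 360 in Control cardiomyocytes. Gmnn, Dut and Rpa3 together made up 8.97%, 9.13% and 15.1% of the members' UMIs in YAP5SA and 30.3%, 59.3% and 58.1% in Control. The other 44 members summed to 930, 979 and 590 CPM in YAP5SA and 189, 161 and 151 in Control. The 3 genes summed to 91.5, 98.4 and 105 CPM in YAP5SA and 82.3, 235 and 209 in Control, so the Control tissue-2 library lay near the YAP5SA libraries and the other Control libraries above. UMIs come from transcript ends and were not scaled by length, so these are shares of UMIs. In the CM1 cluster alone, the largest in Control cardiomyocytes, Gmnn stood at 18.2, 20.2 and 56.5 unscaled CPM in YAP5SA and 45.4, 124 and 104 in Control.

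**Figure D3:**
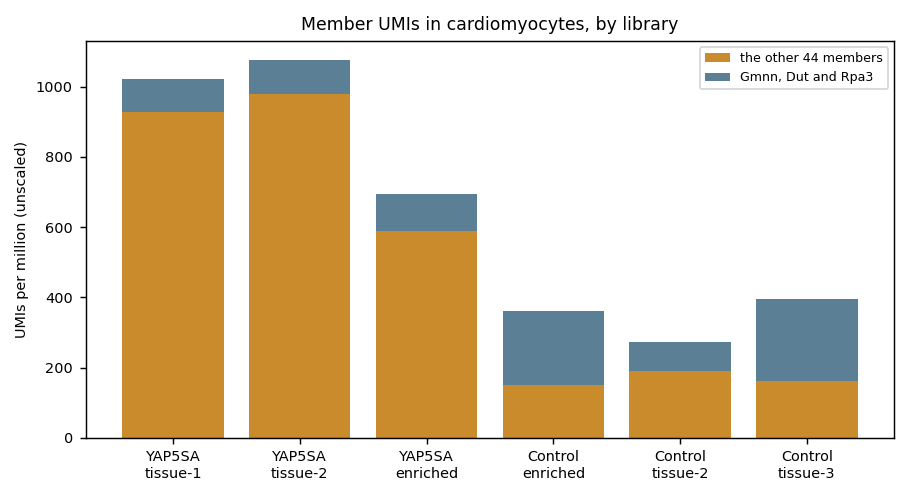
Unscaled CPM of the DNA replication genes in cardiomyocytes of each library, bars starting at 0 and split into Gmnn, Dut and Rpa3 and the other 44 members, YAP5SA libraries left of Control libraries (shown as enriched, tissue-2 and tissue-3). The other 44 members sum to 590 to 979 CPM in YAP5SA and 151 to 189 CPM in Control.

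Within the cardiomyocytes of YAP5SA libraries the members' level was highest in the YAP5SAcm cluster, a cluster the authors defined on these cells' expression, so its level is a description. Its 212, 203 and 481 YAP5SA cells had 1310, 1299 and 965 unscaled CPM of the members, and its 50, 33 and 16 Control cells had 287, 429 and 185. These Control levels rest on 42, 36 and 5 member UMIs, and CM1 to CM3 together had 271, 396 and 361 CPM in the same libraries. Without Gmnn, Dut and Rpa3 the Control cells of YAP5SAcm had 205, 322 and 148 CPM. All Control cardiomyocytes had 189, 161 and 151 CPM of these 44 members. CM2 had 645, 997 and 657 CPM in YAP5SA and 288, 306 and 460 in Control, with no overlap. CM3 had 314, 301 and 465 CPM in YAP5SA and 267, 321 and 333 in Control, and CM1 had 260, 393 and 319 in YAP5SA and 271, 417 and 361 in Control. In CM1 and CM3 the genotypes overlapped for the sum of all members. Without Gmnn, Dut and Rpa3, CM1 had 205.7, 363 and 215 CPM in YAP5SA and 183.2, 158.6 and 141.3 in Control. CM3 then had 275.2, 301.4 and 370.5 CPM in YAP5SA and 225.9, 173.3 and 162.1 in Control. For these 44 members, a set chosen after the values were seen, the genotypes did not overlap in either cluster. The YAP5SA tissue libraries held few member UMIs there, 43 and 78 in CM1 and 32 and 27 in CM3, and the difference was not tested.

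The cycling clusters of other cells stood higher still in both genotypes. Mac4 had 4424, 4689 and 4277 unscaled CPM of the members in YAP5SA and 4751 and 4000 in Control tissue-2 and tissue-3. CF4 had 4386, 3933 and 4005 CPM in YAP5SA and 3896 and 2576 in Control, where tissue-3 gave 12 cells. The genotypes overlapped in Mac4, and every YAP5SA library lay above both Control libraries in CF4. Macrophages as a whole had 3587, 3627 and 3603 CPM in YAP5SA and 3140 and 2023 in Control, and endothelial cells had 1662, 1457 and 1264 in YAP5SA and 1254, 815 and 710 in Control. The genotypes did not overlap in these 2 classes, and endothelial cells were not fitted. Summed members in YAP5SAcm cells of YAP5SA libraries came to 29.6%, 27.7% and 22.6% of the Mac4 level and to 29.9%, 33.0% and 24.1% of the CF4 level of the same library. These percentages differed by member. The median over the 3 YAP5SA libraries was 4.91% of the Mac4 level for Tyms, 7.56% for Tk1 and 11.2% for Gins2. It was 65.3% for Dnmt1, 63.4% for Rpa2, 56.7% for Rrm2 and 55.1% for Rpa1. Against CF4 it was 3.72% for Tyms and 5.98% for Tk1 but 87.1% for Dnmt1 and 121% for Cdt1, which rests on 59 UMIs in YAP5SAcm. The thymidylate enzymes Tyms and Tk1 were thus near the low end and Dnmt1 near the high end against both cycling clusters, as a description without a test. Prim2 (6.88%, on 9 UMIs in YAP5SAcm) lay below Tk1 against Mac4. Against CF4 Orc1 (216%, on 12 UMIs), Rpa2 (94.9%), Pola2 (89.3%) and Chaf1b (88.4%) also lay above Dnmt1.

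The 6 proliferation markers outside the list (Mki67, Top2a, Cenpf, Ccnb1, Cdk1 and Birc5) gave another view of the same cells. Cardiomyocytes held 2.61, 2.67 and 2.82 member UMIs per UMI of these markers in YAP5SA and 19.3, 20.0 and 28.0 in Control. Mac4 held 1.01 to 1.57 in YAP5SA and 0.817 to 1.30 in Control, and CF4 held 1.05 to 1.39 in YAP5SA and 0.526 to 1.31 in Control. The member UMIs of Control cardiomyocytes therefore came with few UMIs of mitotic genes, at 14.1, 19.8 and 12.8 CPM, against 391.7, 403 and 247 CPM in YAP5SA cardiomyocytes.

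**Figure D4:**
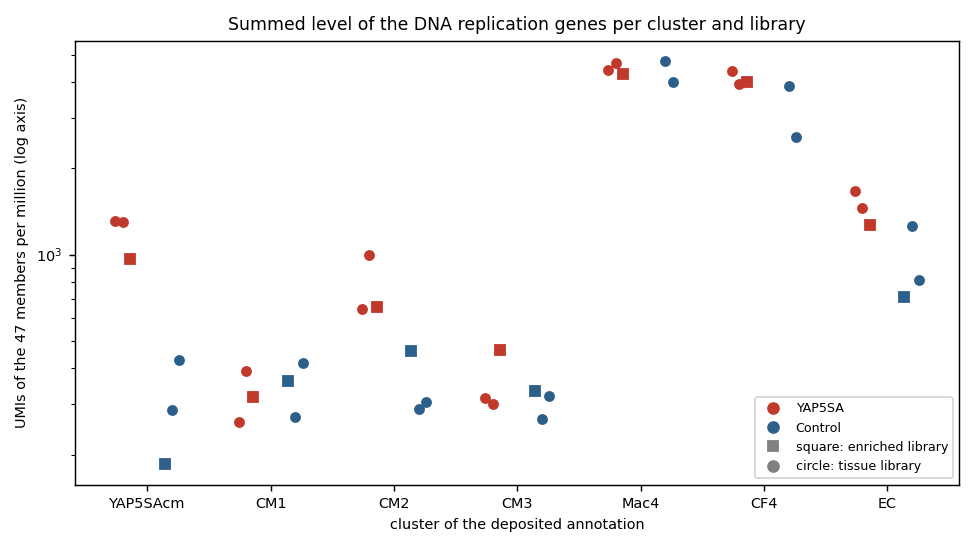
Summed level of the 47 DNA replication genes (unscaled CPM, log axis) in each library for YAP5SAcm, CM1, CM2, CM3, Mac4, CF4 and endothelial cells (EC), YAP5SA (red) left of Control (blue), circles for tissue and squares for enriched libraries. YAP5SAcm of YAP5SA libraries lies between the other cardiomyocyte clusters and the cycling clusters Mac4 and CF4.

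Markers of other cell types were also detected in the cardiomyocyte class. The 13 macrophage markers summed to 437, 1124 and 582 CPM in YAP5SA cardiomyocytes and 319, 162 and 22.9 CPM in Control cardiomyocytes, with 13 of 13 detected in every library except Control enriched, where 10 were. The 10 fibroblast markers, all detected in every library, summed to 603, 686 and 754 CPM in YAP5SA and 280, 666 and 142 in Control. The 5 smooth muscle markers, all detected as well, summed to 3502, 3121 and 3027 CPM in YAP5SA and 314, 89.3 and 75.7 in Control. Markers of macrophages and fibroblasts were set beside the members' level in 2 ways. Neither way covers endothelial or smooth muscle cells, and the part of other cells in the members' level was not tested. In YAP5SAcm cells of YAP5SA libraries macrophage markers stood at 2.25%, 5.16% and 3.19% of their Mac4 level and fibroblast markers at 1.84%, 2.32% and 3.45% of their CF4 level, while the members stood at 22.6% to 33.0% of these clusters. In cardiomyocytes without a UMI of any of the 23 macrophage and fibroblast markers (77, 22 and 403 cells in YAP5SA; 146, 331 and 920 in Control), the 44 members other than Gmnn, Dut and Rpa3 stood at 967, 560 and 431 CPM in YAP5SA and 180, 160 and 148 in Control. The exact 95% Poisson intervals of these levels, for counting error only, were 810 to 1145, 342 to 864 and 389 to 476 CPM in YAP5SA and 142 to 226, 139 to 184 and 134 to 164 CPM in Control. This set of 44 was chosen after the values were seen. All 47 members stood at 1054, 616 and 503 CPM in YAP5SA and at 266, 377 and 356.5 CPM in Control. For all 47 the interval of YAP5SA tissue-2 (386 to 932 CPM) overlapped that of Control tissue-3 (343 to 412.5 CPM). In these marker-free cells 8 members passed the filter, of which edgeR's quasi-likelihood test called Rrm2 and Dnmt1 higher and Gmnn lower, against 8.22% and 5.13% of 5867 genes. The median log2 fold change of these 8 was -0.06, with 4 positive, beside -0.05 over all genes. Only 4 of the 22 members called with all cardiomyocytes were among these 8, so this median covers different members.

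Cells with many members at once were a minority of cardiomyocytes in both genotypes. Cells with UMIs of at least 5 different members numbered 37 of 343, 62 of 282 and 140 of 1004 in YAP5SA and 26 of 576, 101 of 1173 and 4 of 1068 in Control. These cells were picked by their own member UMIs, so the share of UMIs they hold is a description. They held 71.1%, 78.8% and 63.9% of the members' UMIs in YAP5SA cardiomyocytes and 21.0%, 31.3% and 2.03% in Control cardiomyocytes. In YAP5SA 37, 58 and 106 of them were YAP5SAcm cells, and the cell with the most had 41, 32 and 31 of the 47 members. In Control 1, 1 and 0 of them were YAP5SAcm cells. Depth moved with this count: the median cell with at least 5 members had 5194, 5800 and 7302 UMIs in YAP5SA and 16500, 15540 and 4930 in Control. In YAP5SAcm cells with at least 5 members macrophage markers stood at 495, 1426 and 1318 CPM, against 470, 938 and 353 CPM in the other YAP5SAcm cells of the same YAP5SA libraries, and at 21240 to 23030 CPM in Mac4. Their fibroblast markers stood at 394, 795 and 1655 CPM, against 761, 746 and 851 CPM. At least 5 UMIs of macrophage markers were found in 13.5%, 48.3% and 25.5% of them, against 4.0%, 14.5% and 6.67% of the other YAP5SAcm cells. At least 5 UMIs of fibroblast markers were found in 13.5%, 39.7% and 22.6%, against 10.3%, 8.97% and 7.47%. For endothelial markers the shares were 18.9%, 15.5% and 37.7%, against 6.29%, 3.45% and 22.4%. These shares move with depth, and the cells with at least 5 members had a median of 5194, 5956 and 7273 UMIs, against 1802, 2299 and 2615. Their cardiomyocyte markers stood at 26310, 25140 and 36170 CPM, against 33450, 27970 and 38520 CPM, and the part of doublets was not tested.

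Shares of cells depended on depth and were compared after each cell was thinned to 1000 UMIs. The share of thinned cardiomyocytes with a UMI of any member was 39.9%, 42.9% and 38.5% in YAP5SA and 22.5%, 29.8% and 29.7% in Control. The mean was 40.4% ± 2.2 in YAP5SA and 27.3% ± 4.2 in Control (SD, n = 3 each), and the libraries did not overlap. An exact two-sided permutation test within preparations gave p = 0.167 for this difference of 13.1 percentage points, the smallest p the design allows. Without Gmnn, Dut and Rpa3 the shares were 36.8% ± 3.2 in YAP5SA and 15.2% ± 1.4 in Control (SD, n = 3 each), a comparison added after the values were seen. In cardiomyocytes without macrophage or fibroblast markers the thinned share was 34.3% ± 8.1 in YAP5SA and 27.3% ± 4.1 in Control (SD, n = 3 each), where the libraries overlapped (difference 7.03 percentage points, exact permutation p = 0.333). This rested on 56, 15 and 320 cells in YAP5SA and on 137, 324 and 904 cells in Control. Unthinned, the share was 64.4% ± 4.6 in YAP5SA and 64.7% ± 8.7 in Control, where the cells of the tissue libraries were deeper. Thinned cells with at least 3 different members made up 7.99%, 11.4% and 6.08% in YAP5SA and 0.536%, 0.260% and 0.477% in Control. Thinned endothelial cells, with a median of 1094 to 1472 UMIs before thinning in YAP5SA and 1008 to 1391 in Control, had a UMI of any member in 79.0%, 70.2% and 54.1% in YAP5SA and in 66.0%, 48.4% and 53.5% in Control. No class of these hearts was free of the members, so a share set by free RNA alone could not be read from another class.

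Shares of single members in thinned cells follow. Rrm2 had a UMI in 5.90%, 6.53% and 3.60% of YAP5SA cardiomyocytes and in 0%, 0.260% and 0.381% of Control cardiomyocytes. Clspn had one in 1.74%, 0.816% and 1.01% in YAP5SA and in 0 cells of every Control library. Set at 3 cells of those kept, the limit that a count of 0 allows for cells with a UMI at this depth was 0.536%, 0.260% and 0.286%, and unthinned Control tissue-2 cardiomyocytes held 3 UMIs of Clspn. Gmnn had one in 1.04%, 3.67% and 3.83% in YAP5SA and in 3.39%, 9.34% and 9.44% in Control, so its YAP5SA enriched and tissue-2 libraries lay above Control tissue-2. These shares carry counting error only and were not tested.

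With all libraries, 0 members were called in fibroblasts, macrophages, Mac4 or CF4, the 4 other classes fitted. In fibroblasts (CF1 to CF4) edgeR's quasi-likelihood test called 0 of 45 members higher and 0 lower, against 1.44% and 0.762% of 10763 genes, with 1 member (Gins1, log2 fold change 1.36) at an unadjusted p under 0.05. In macrophages (Mac1 to Mac4) it called 0 of 47 in either direction, against 0.0% and 0.0% of 11751 genes, with Gins1 (0.99) at an unadjusted p under 0.05. Within Mac4 it called 0 of 47, against 0.999% higher and 0.673% lower (1.67% in either direction) of 9808 genes, with Gins1 (1.12) again the 1 member at an unadjusted p under 0.05. Within CF4 it called 0 of 39, against 1.97% higher and 0.646% lower of 7275 genes, with 0 at an unadjusted p under 0.05. DESeq2 also called 0 members in these 4 comparisons. The median log2 fold change of the members was 0.34 in fibroblasts, 0.31 in macrophages, 0.10 in Mac4 and 0.14 in CF4, beside 0.09, 0.05, 0.13 and 0.05 over all genes tested. These medians depended on the Control tissue libraries. Without Control tissue-2 they were 1.96 in fibroblasts (43 of 44 positive), 0.77 in macrophages, 0.67 in Mac4 and 6.03 in CF4, where 12 Control cells were left, beside 0.18, 0.31, 0.92 and 5.99 over all genes. Without Control tissue-3 they were -0.19 in fibroblasts (13 of 47 positive), 0.17 in macrophages, 0.03 in Mac4 and 0.04 in CF4, beside 0.10, 0.04, 0.08 and 0.01 over all genes.

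An unadjusted p under 0.05 was reached by 7.91% of all genes in fibroblasts and 10.1% in macrophages, so 1 member of 45 and 1 of 47 are below the background. Mac4 cells are also part of the macrophages, and these fits share their libraries. In Mac4 the GINS subunit Gins1 had 82.4, 76.4 and 71.2 CPM in YAP5SA and 39.8 and 22.4 in Control, and in fibroblasts 50.3, 39.6 and 38.4 in YAP5SA and 22.7, 8.95 and 0 in Control. Its groups did not overlap in either, yet its adjusted p was 0.474 in Mac4 and 0.274 in fibroblasts. In cardiomyocytes it was not called either (0.48, adjusted p = 0.355). YAP5SA libraries lay above Control libraries for 3 members in fibroblasts, 22 in macrophages, 10 in Mac4 and 11 in CF4, against 11.3%, 21.9%, 25.8% and 19.2% of all genes. They lay below Control libraries for 0, 0, 5 and 0 members, against 1.9%, 14.1%, 11.2% and 5.66%. The macrophage, Mac4 and CF4 fits had 5 libraries, since Control enriched held 0 such cells, and it gave 10 fibroblasts.

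Control tissue libraries stood apart from each other in these cells. The members summed to 2247, 2068 and 2264 unscaled CPM in YAP5SA fibroblasts and to 2692, 610 and 670 in Control fibroblasts. CF4 made up 19.8%, 21.2% and 21.8% of YAP5SA fibroblasts and 29.0%, 2.89% and 0% of Control fibroblasts. Monocytes showed the same gap, with 3476, 3070 and 3362 CPM in YAP5SA and 3716 and 755 in Control tissue-2 and tissue-3. Without Control tissue-2, 17 of 44 members were called higher in fibroblasts, against 5.8% of all genes. The Control libraries left in that fit were tissue-3 and the enriched library with 10 fibroblasts. In macrophages the same step left 1 Control library, and the members' median log2 fold change was 0.77, with 39 of 47 positive. Both classes had 0 calls of members with all libraries. Without Control tissue-3, which left 1 Control library in Mac4, Rrm2 stood at a log2 fold change of -0.87 there.

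The difference of the genotype effect was tested directly, with the library as a block, and for fibroblasts it turned on the Control tissue-2 library. Relative to fibroblasts the effect in cardiomyocytes was larger for 19 of 47 members and smaller for 2, against 10.4% and 9.09% of 12404 genes. Relative to macrophages it was larger for 20 and smaller for 2, against 7.42% and 11.1% of 13432 genes. Both contrasts use the same cardiomyocyte sums. In both, the members with a larger effect included Mcm10, Orc1 and Cdc6, with 0, 0 and 1 UMIs in all Control cardiomyocytes. They also included Mcm6, Cdt1 and Clspn, with 4, 3 and 3, so the sizes of these differences are uncertain. A member can enter these fits through the counts of 1 class or genotype alone, so the counts of members are a description. For Mcm6 the log2 difference was 4.24 relative to fibroblasts and 4.90 relative to macrophages, for Rrm2 3.45 and 4.62, and for Clspn 3.91 and 3.75. For Gmnn it was -1.99 and -2.10 and for Rpa3 -1.85 and -1.75. The median difference was 1.38 relative to fibroblasts (38 of 47 positive) and 1.34 relative to macrophages (37 of 47), beside -0.04 and -0.16 over all genes. Without Control tissue-2 the median relative to fibroblasts was -0.50, with 19 of 46 positive, beside -0.17 over all genes. In that fit 3 members were called larger and 4 smaller, against 11.1% and 13.3% of all genes, and Rrm2 stood at -0.67. Without YAP5SA tissue-2, 3 members were called larger and 0 smaller relative to fibroblasts. Relative to macrophages 5 members were called larger without YAP5SA tissue-1 or YAP5SA tissue-2. Without Control tissue-2, which left 1 Control library in the contrast with macrophages, the median was 0.49 beside -0.58 over all genes.

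**Figure D5:**
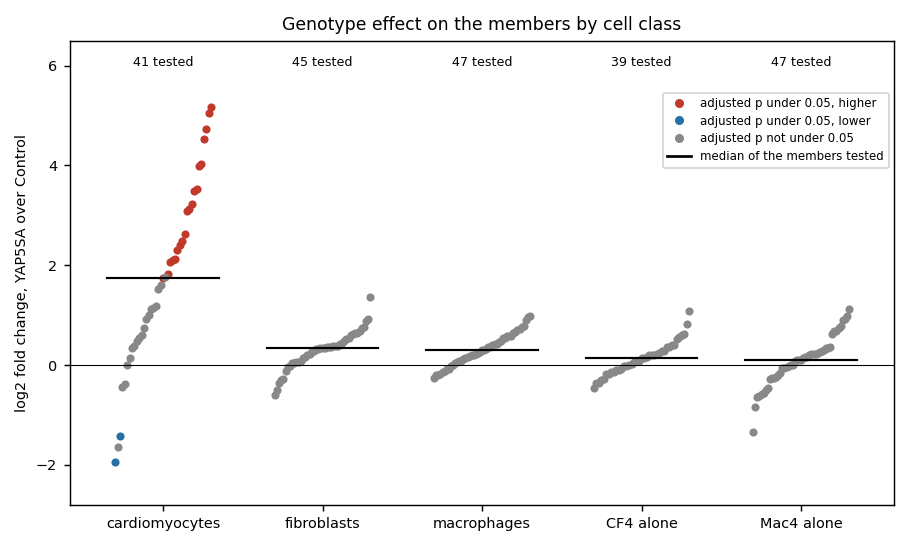
Log2 fold change, YAP5SA over Control, of each tested DNA replication gene (points) in cardiomyocytes, fibroblasts, macrophages, CF4 and Mac4, in order of size within each class, with the median of the members tested as a line; red and blue points had an adjusted p under 0.05. With all libraries cardiomyocytes have a members' median of 1.74 and the other classes of 0.10 to 0.34, while without Control tissue-2, which is not drawn, the fibroblast median is 1.96.

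Genes of replication outside the 47 were read from a second list. Of 55 listed, 53 were in the table, and 36 passed the filter in cardiomyocytes. Of these 36, 10 rose and 1 fell, against 13.9% and 12.6% of all genes tested. Their median log2 fold change was 0.34, beside 0.04 over all genes. A gene can pass the filter through the libraries where it is high, so these counts are a description. Dtl, Pclaf, Ccna2 and Asf1b stood at 0 to 1.97 TMM-scaled CPM in Control libraries. Among those that rose were Top2a (5.10), the topoisomerase that untangles daughter strands, Dtl (4.87), which targets Cdt1 for destruction, the PCNA partner Pclaf (4.57), the S phase cyclins Ccna2 (4.50) and Ccne1 (3.05), the histone chaperone Asf1b (3.49), Samhd1 (2.82) and Dck (2.38) of nucleotide metabolism, and the checkpoint adaptor Topbp1 (1.92). The other Asf1 chaperone, Asf1a, fell (-1.07). In fibroblasts, macrophages, Mac4 and CF4 edgeR's quasi-likelihood test called 0 of 46, 51, 48 and 41 of these genes, with 0, 4, 1 and 1 at an unadjusted p under 0.05, and DESeq2 called 0. Without YAP5SA tissue-2, 2 of these genes were called higher in cardiomyocytes, and without YAP5SA tissue-1 it was 5.

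The genes whose level most resembled the members' sum over 91 cluster-by-library sums were Dek (Pearson r 0.86), Smc2 (0.84) and Hmgb2 (0.84), followed by Clta, Nucks1, Pfn1, Pabpc1, Actb, Actr3 and Cdk1, the last at 0.84. Among the members the correlation with the sum ran from 0.37 for Pola2 to 0.85 for Mcm3, with Gmnn at 0.46, Rpa3 at 0.52 and Dut at 0.52. The sums share libraries, depth and cell type, and these values are a description.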

How the data were processed

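Drop-seq UMI counts of 21706 cells in 6 libraries were used with the authors' deposited table of cells and clusters. The deposited values are whole-number counts of UMIs per feature and cell, and the submitters' processing notes name Picard, STAR and Seurat 2.3.4, while the genome build and annotation are not given in the sources used here. The deposited table of cells also holds the authors' mitochondrial fraction of UMIs per cell, printed here as a percent. Of 22281 features, 836 carried joined names of overlapping genes, and 384 features with 0.194% of UMIs were left out.

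The members and lists were chosen with earlier results of these data known. All 47 members may be named, and library values are given in full for the 2 members of each role group with the smallest p in cardiomyocytes, members called lower, and the 3 with most UMIs. Of the second list, at most 10 genes called by smallest p and every gene called lower are named.

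UMI sums of each class in each library were tested with edgeR 4.0.16 (R 4.3.3; TMM scaling, filterByExpr, robust quasi-likelihood F test, preparation and genotype as terms), with Benjamini-Hochberg adjustment over all genes tested and a threshold of 0.05. Differences of the genotype effect between classes were fitted in 1 model with the library as a block. DESeq2 1.42.0 was an alternative. The fits were tested on simulated data. Classes with under 10 cells in a library were left out for that library. Shares used cells thinned to 1000 UMIs, without shallower cells (288, 245 and 888 cardiomyocytes were kept in YAP5SA and 560, 1156 and 1049 in Control), and an exact two-sided permutation test within preparations. UMI intervals are exact Poisson or binomial intervals at 95%, the limit behind a share of 0 is 3 cells of those kept, and both cover counting error only. Doublets were not called, since the deposited clusters were used as given. Exon overlaps of members were looked up in GENCODE annotation, with names only. A gene of the second list is not reported here by name.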

Additional observations from a re-analysis of the deposited data

Results flagged for a closer look

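With all libraries the genotype effect differed between cell classes by the tests of the difference itself, made with edgeR's quasi-likelihood test and adjusted over all genes. Cardiomyocytes against fibroblasts gave 19 members with a larger effect and 2 with a smaller one. Without Control tissue-2 it gave 3 and 4, and the members' median difference was -0.50, against 1.38 with all libraries. With all libraries the log2 differences of the members with library values in the report were 4.24 for Mcm6, 4.06 for Cdt1, 3.91 for Clspn, 3.45 for Rrm2, 3.28 for Mcm5 and 2.80 for Hells. They were 2.37 for Prim1, 1.72 for Fen1, 1.57 for Dnmt1, 1.54 for Lig1, -1.85 for Rpa3 and -1.99 for Gmnn.

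Cardiomyocytes against macrophages gave 20 members with a larger effect and 2 with a smaller one. In both contrasts the larger effects of Mcm6, Cdt1 and Clspn rest on 4, 3 and 3 UMIs in all Control cardiomyocytes. Those of Mcm10, Orc1 and Cdc6 rest on 0, 0 and 1, so the counts of members are a description. The log2 differences were 4.90 for Mcm6, 4.62 for Rrm2, 4.09 for Cdt1, 3.75 for Clspn, 3.5 for Mcm5 and 2.97 for Hells. They were 2.41 for Lig1, 2.08 for Dnmt1, 1.52 for Rrm1, 1.38 for Fen1, -1.75 for Rpa3 and -2.10 for Gmnn. The Control tissue-2 and tissue-3 libraries differed in the members' level in fibroblasts (2692 and 610 CPM). Without Control tissue-2, which left 1 Control library in the contrast with macrophages, the members' median difference was 0.49.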

How the results depend on the processing

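In cardiomyocytes 20 members were called higher and 2 lower. The counts were 33 and 0 with library totals alone, 3 and 0 in YAP5SAcm cells alone (an alternative chosen after seeing the data), 0 and 0 without YAP5SAcm cells and 2 and 1 without marker-positive cells, where 14, 20 and 8 members were tested in the last 3 settings. Tissue libraries alone gave 0 lower calls. Leaving out 1 library gave 3 to 22 higher and 0 to 3 lower. The second list (10 higher, 1 lower) gave 22 and 0 with library totals alone, 4 and 0 in YAP5SAcm cells alone, 0 and 0 without YAP5SAcm cells, 2 and 0 without marker-positive cells, 16 higher in libraries with joined names, and 2 lower with no filter on low counts. Leaving out 1 library gave 2 to 13 higher and 0 to 2 lower. All 22 calls of members were kept with RLE size factors, with DESeq2, without a filter, without the covariate and in libraries with joined names.

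Leaving out 1 library gave 0 to 17 members called higher in fibroblasts and 0 to 4 in macrophages (second list 0 to 8 and 0 to 1), and in Mac4 0 to 1 members called lower and 0 to 2 genes of the second list called higher. For cardiomyocytes against fibroblasts it gave 3 to 28 larger and 0 to 4 smaller effects, and against macrophages 5 to 21 and 0 to 3. With library totals alone 0 smaller effects were called in either contrast.

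The sign turned for Dut in YAP5SAcm cells alone (1.29) and in libraries with joined names (0.38), and for Asf1a in YAP5SAcm cells alone (0.15). Without Control tissue-2 the difference of effects turned below 0 against fibroblasts for 7 members, whose log2 ranges over leaving out 1 library were Mcm7 (-0.40 to 2.67), Mcm10 (-0.43 to 6.59), Cdc6 (-3.88 to 5.99), Gins2 (-0.84 to 3.46), Fen1 (-0.58 to 2.58), Lig1 (-0.0296 to 2.13) and Rrm2 (-0.67 to 4.92), and against macrophages for Orc1 (-0.64 to 7.03). The share of cells turned to -0.298 percentage points unthinned, where depth differed between genotypes. Otherwise the cause was not tested. No paired analysis was possible because the deposited columns number the YAP5SA tissue libraries otherwise than the titles. A minimum of 30 cells left every cardiomyocyte library in place.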
